A study of Mus musculus with 12 samples.

Results

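Fat cell genes were followed in the colon of Parp1-/- and wild-type mice, Parp1 being a poly(ADP-ribose) polymerase that acts at DNA breaks, as a mark of fat tissue attached to the gut. The members were the 10 genes Adipoq, Fabp4, Plin1, Lep, Cfd, Lipe, Pparg, Car3, Retn and Cidec, each taken as the mean of the probe sets annotated with that symbol alone. With 10 probe sets, 9 of the 10 were measured among 21314 genes; Cfd was not analysed here. RNA of the whole colon of 12 mice, 6 to 8 weeks old by the labels, was hybridised to 12 Affymetrix arrays, 1 mouse per array. The 4 groups of 3 mice were Parp1-/- mice that drank dextran sulfate sodium (DSS) at 4% during 7 days, Parp1-/- mice given plain water, wild-type mice given the same DSS and wild-type mice given plain water. DSS is a sulfated polysaccharide that injures the colon lining when mice drink it. The labels give Parp1-/- with no strain, sex or targeting design, and say that colons were washed and frozen; no source used here says whether attached fat was trimmed.

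White fat cells store triglyceride in a large droplet coated by perilipin, release fatty acids from it by lipolysis and secrete hormones such as adiponectin and leptin. Their formation depends on PPARG, a nuclear receptor that binds fatty acids, together with transcription factors of the C/EBP family. The mesentery, which carries vessels to the colon, holds fat of this kind. Several of these genes are also active elsewhere: Pparg in colonocytes, Fabp4 in capillary endothelium and macrophages, Car3 in skeletal muscle.

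All values are log2 values whose median over the 12 arrays is 0 for every probe set as deposited, with base 2 and larger values for more RNA assumed here. A value of 0 is thus the middle of the 12 arrays for that gene, levels of different genes cannot be set against each other, and neither the presence of fat nor the labelled tissue can be read from the level of a marker. In whole tissue, fewer cells of a type and less RNA per cell cannot be told apart. Parp1 itself was at -0.22 to 0.03 in the 6 Parp1-/- arrays and at -0.41 to 1.15 in the 6 wild-type arrays, and limma called it in none of the comparisons. The array labelled wild-type water 1, at -0.41, lay below every Parp1-/- array, so Parp1 RNA does not check the labels, and no source used here says whether its probe set lies in the deleted part. Groups are named by their labels. Arrays that stood apart touch every comparison. The mean of 16 housekeeping genes was -0.01 to 0.36 in the 6 Parp1-/- arrays and wild-type DSS 2 and 3, against -0.86 in wild-type DSS 1 and -1.67 to -0.95 in the 3 wild-type water arrays, and the mean of 19 smooth muscle genes was 2.34 to 2.42 in Parp1-/- water 2 and 3 and Parp1-/- DSS 1, against -0.60 to 0.07 in the other 9.

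Promoter sequences are shown for 4 members to give the letters that C/EBP factors and nuclear receptors are known to bind. RefSeq (GRCm38.p6) listed 11 promoter windows for 7 of the 9 genes, each of 250 bases before and 50 after a transcription start. Both strands were searched for TTGCNNAA and the palindrome TTGCGCAA within it, which are C/EBP-type letters, and for AGGTCA, the unit bound by nuclear receptors such as PPARG, and for the direct repeat known as DR1, searched as AGGNCA, any 1 base and AGGNCA. Capitals mark any match. The windows are Lep at chr6:29059971-29060270 on the plus strand, Plin1 at chr7:79732727-79733026 on the minus strand, the third of 3 Pparg starts at chr6:115421816-115422115 on the plus strand and Adipoq at chr16:23146286-23146585 on the plus strand.
Lep: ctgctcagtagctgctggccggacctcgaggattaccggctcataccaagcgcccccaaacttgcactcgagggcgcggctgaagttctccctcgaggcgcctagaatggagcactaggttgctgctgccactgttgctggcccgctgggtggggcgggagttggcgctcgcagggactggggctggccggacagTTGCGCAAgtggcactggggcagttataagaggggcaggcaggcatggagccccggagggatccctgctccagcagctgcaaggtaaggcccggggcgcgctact
Plin1: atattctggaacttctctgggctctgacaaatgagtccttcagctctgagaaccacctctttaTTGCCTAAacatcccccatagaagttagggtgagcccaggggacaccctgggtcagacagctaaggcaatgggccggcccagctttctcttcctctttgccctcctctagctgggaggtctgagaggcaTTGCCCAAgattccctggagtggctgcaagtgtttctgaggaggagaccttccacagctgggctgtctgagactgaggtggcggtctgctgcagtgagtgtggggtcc
Pparg: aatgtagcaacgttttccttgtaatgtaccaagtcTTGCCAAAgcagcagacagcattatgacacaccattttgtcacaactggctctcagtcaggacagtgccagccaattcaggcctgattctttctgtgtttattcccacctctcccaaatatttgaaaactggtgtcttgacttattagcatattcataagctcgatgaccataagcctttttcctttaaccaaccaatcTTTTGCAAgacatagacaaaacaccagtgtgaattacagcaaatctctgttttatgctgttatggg
Adipoq: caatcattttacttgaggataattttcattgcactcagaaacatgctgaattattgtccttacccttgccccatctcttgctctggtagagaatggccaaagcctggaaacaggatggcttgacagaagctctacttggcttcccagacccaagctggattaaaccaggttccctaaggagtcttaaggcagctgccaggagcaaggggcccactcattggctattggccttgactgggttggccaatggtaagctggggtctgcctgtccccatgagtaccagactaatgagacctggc
The palindrome TTGCGCAA stood in the Lep window, beginning 55 bases before the start, which was 1 of the 11 windows, against 0.183% of all 32851 windows. TTGCNNAA was found in 4 of the 11 windows, 1 each of Lep, Plin1, Pparg and Cidec, and in 10.8% of all windows. The Plin1 window held it at 187 and at 58 bases before the start. AGGTCA was found in 2 of the 11, the other 2 starts of Pparg, and in 16.3% of all windows, while the direct repeat was in 0 of the 11 and in 0.381% of all windows. A match describes the letters in these windows. The 1 probe set of Pparg gives 1 value for the gene, without a value for each start.

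Pparg, the receptor that directs fat cell formation, set the wild-type water mice apart from all others. Its values were 0.32, 0.52 and -0.02 in Parp1-/- DSS mice 1 to 3, 0.07, 0.02 and 0.10 in Parp1-/- water, -0.03, 0.39 and -0.03 in wild-type DSS and -2.32, -0.88 and -1.24 in wild-type water. The 9 mice of the first 3 groups thus lay above each wild-type water mouse. Wild-type mice given DSS had 3.01-fold more Pparg than wild-type mice in water, a log2 difference of 1.59 ± 0.31 (SE, n = 3 mice per group, limma adjusted p = 0.00736), and Parp1-/- mice in water were higher than wild-type mice in water by 1.54 ± 0.31 (limma adjusted p = 0.00530). The mean of 17 colon epithelium genes was low in wild-type water too, and in 1 more array: it was at -0.01 to 0.36 in the 6 Parp1-/- arrays, at -0.92, -0.10 and 0.32 in wild-type DSS 1 to 3 and at -1.45 to -1.29 in wild-type water. Of these 17, 10 were called higher for DSS in wild-type mice, namely Muc2, Car1, Epcam, Car4, Krt20, Lgals4, Cdh1, Krt18, Krt19 and Vil1. For genotype in water the same 10 were called with Fcgbp, Krt8 and Slc26a3. Of all genes, 8.89% and 17.9% were called higher in these 2 comparisons. After quantile normalization 3 and 7 of the 17 were called higher, against 0.924% and 7.3% of all genes. On the housekeeping scale 4 of the 17 were called higher and 2 lower in each. All genes were called higher there in 2.4% and 2.72%, and lower in 70% and 74.7%. Both Pparg calls ended when arrays were centred on the housekeeping genes, with limma adjusted p = 0.173 and 0.695, and after quantile normalization, with 0.137 and 0.0535. Fitted to the 6 wild-type arrays alone, the DSS call ended (limma adjusted p = 0.0761), and without the array labelled wild-type water 1 the differences were 1.17 and 1.12, both still called. Without the 3 arrays high in smooth muscle genes Parp1-/- water was left with 1 array: the difference was 1.55 ± 0.52 (SE), near that of all arrays, and was not called (limma adjusted p = 0.238). The part of the epithelium and housekeeping genes in the Pparg result was not tested.

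Among the secreted members no difference passed the test. Adipoq encodes adiponectin, a hormone made almost only by fat cells, and was at 0.42, 0.66 and -0.12 in Parp1-/- DSS, -0.83, 0.47 and 0.18 in Parp1-/- water, -0.04, -0.65 and 0.51 in wild-type DSS and -0.61, -0.52 and 0.04 in wild-type water. Every group held a mouse on each side of 0. Adipoq averaged 0.32 ± 0.40 in Parp1-/- DSS, -0.06 ± 0.68 in Parp1-/- water, -0.06 ± 0.58 in wild-type DSS and -0.36 ± 0.35 in wild-type water (SD, n = 3 each). Its DSS differences were 0.38 ± 0.38 in Parp1-/- mice and 0.30 ± 0.38 in wild-type mice (SE), neither called.

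Lep, which encodes leptin, the hormone that reports fat stores to the brain, was at -0.28, 0.26 and -0.19 in Parp1-/- DSS, -0.59, 1.15 and -0.04 in Parp1-/- water, 0.29, -0.62 and 0.91 in wild-type DSS and 0.06, -1.05 and 0.04 in wild-type water. All groups overlapped in each of the 4 comparisons. Between groups lay 12.1% of the variation of Lep, the lowest share among the 9 genes. It was also the member whose DSS difference in Parp1-/- mice was below 0, at -0.24 ± 0.49 (SE), with an interval at 95% confidence from -1.31 to 0.82.

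Retn encodes resistin, which mouse fat cells secrete. It was at 0.43, 1.58 and 0.77 in Parp1-/- DSS, -1.64, -0.07 and 0.06 in Parp1-/- water, 0.73, -0.36 and 0.96 in wild-type DSS and -1.47, -1.20 and -0.06 in wild-type water. In Parp1-/- mice all 3 DSS arrays lay above all 3 water arrays, while the wild-type groups overlapped through DSS mouse 2. The DSS differences were 1.47 ± 0.54 in Parp1-/- mice and 1.36 ± 0.54 in wild-type mice (SE), with limma adjusted p of 0.99996 and 0.118. With unadjusted p of 0.0185 and 0.0274, neither passed the adjustment over all genes.

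The genes of lipid droplet proteins had no called difference. Plin1, perilipin, which coats the droplet and gates lipolysis, was at 0.31, 1.14 and 0.24 in Parp1-/- DSS, -1.46, 0.37 and -0.09 in Parp1-/- water, 0.09, -0.65 and 0.24 in wild-type DSS and -1.38, -1.38 and -0.53 in wild-type water. Cidec, which fuses droplets into larger ones, was at 0.41, 0.62 and -0.05 in Parp1-/- DSS, -1.57, 0.05 and -0.32 in Parp1-/- water, 0.05, -1.16 and 1.23 in wild-type DSS and -0.32, -1.06 and 0.46 in wild-type water. In both genes Parp1-/- water 1 was the lowest of all 12 arrays. The DSS difference of Plin1 was 0.96 ± 0.45 in Parp1-/- mice and 0.99 ± 0.45 in wild-type mice, and that of Cidec was 0.94 ± 0.59 and 0.34 ± 0.59 (SE), none called.

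Lipe encodes hormone-sensitive lipase, which breaks stored fat down, and was at 0.50, 0.62 and 0.26 in Parp1-/- DSS, -0.31, 0.25 and 0.08 in Parp1-/- water, -0.08, -0.41 and 0.66 in wild-type DSS and -1.07, -0.30 and -0.25 in wild-type water. Its spread between mice of a group, an SD of 0.40, was the smallest of the 9 genes. In Parp1-/- mice its DSS arrays lay just above its water arrays, at a difference of 0.45 ± 0.30 (SE, limma adjusted p = 0.99996).

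Fabp4, the fatty acid carrier of fat cells, had the widest range of the 9 genes, 5.62 log2 units. It was at 0.84, 1.60 and 0.71 in Parp1-/- DSS, -3.86, 0.50 and 0.20 in Parp1-/- water, -0.20, -1.90 and 1.26 in wild-type DSS and -3.27, -4.01 and -2.42 in wild-type water. DSS arrays lay above water arrays in each genotype, and the array of Parp1-/- water 1 sat among those of wild-type water. The DSS difference was 2.11 ± 1.05 in Parp1-/- mice (SE, limma adjusted p = 0.99996) and 2.95 ± 1.05 in wild-type mice (limma adjusted p = 0.0883), and Parp1-/- water exceeded wild-type water by 2.18 ± 1.05 (limma adjusted p = 0.125). Leaving out Parp1-/- water 1 turned the last 2 into calls, with limma adjusted p = 0.0204 for DSS in wild-type mice and 0.00999 for genotype in water. That array is not in the wild-type groups. Its removal changed the spread shared by the 4 groups and left the DSS difference in wild-type mice at 2.95. Leaving out the 3 arrays high in smooth muscle genes instead, which left only mouse 1 in Parp1-/- water, gave a genotype difference in water of -0.62.

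Car3, a carbonic anhydrase abundant in fat and skeletal muscle, was measured by 2 probe sets that disagreed. Their mean was 0.50, 0.95 and -0.07 in Parp1-/- DSS, -3.16, 0.22 and -0.11 in Parp1-/- water, 0.40, -1.77 and 0.82 in wild-type DSS and -1.70, -1.57 and 0.24 in wild-type water. Parp1-/- water 1 was again lowest. In wild-type DSS 1 the first probe set was at -2.04 and the second at 2.84, so the mean there has no settled sign. The DSS difference in wild-type mice was -0.09 by the first and 1.74 by the second, neither called. The 15 skeletal muscle genes stayed between -0.20 and 0.34 in their mean over the 12 arrays, at 0.09 in Parp1-/- water 1.

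**Figure D1:**
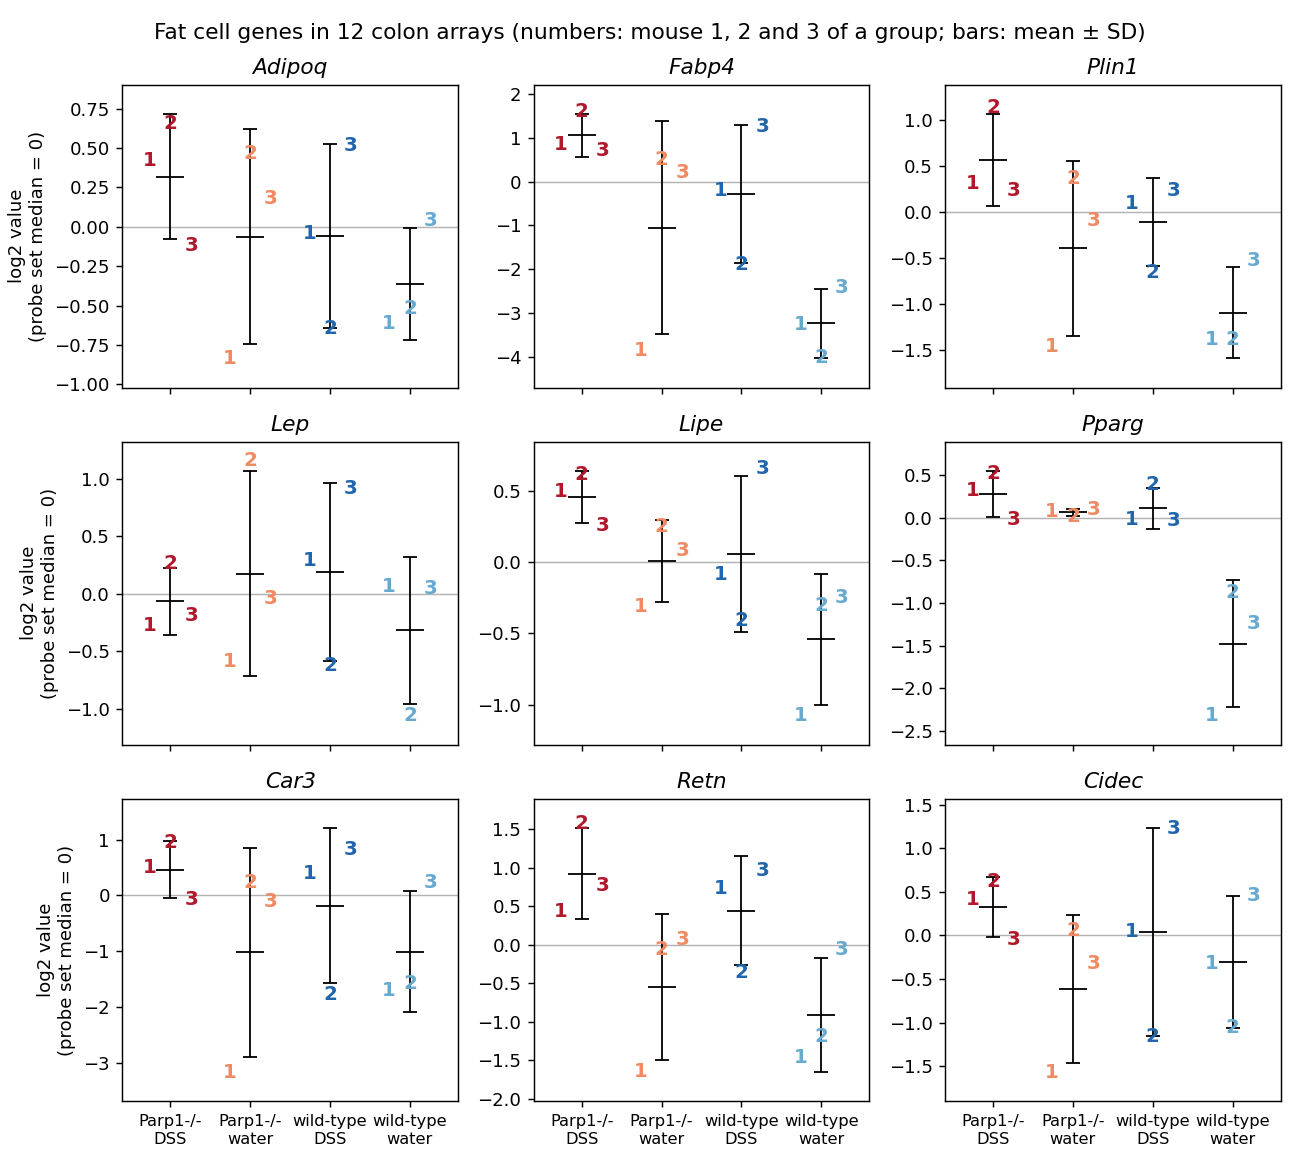
Values of the 9 fat cell genes by group, as log2 values centred on the probe set median, with each digit the mouse of that number in its group and bars the mean ± SD (n = 3). Parp1-/- water 1 is the lowest of its group in every gene but Pparg, and Pparg is low in the 3 wild-type water mice.

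Read array by array, the genes other than Pparg tended to be high or low in the same mice. In Parp1-/- DSS, mouse 2 was the highest of its group in 9 of 9 genes, a position it held in 22.8% of all genes, and mouse 3 was the lowest in 7 of 9, against 30.2%. In Parp1-/- water, mouse 1 was lowest in 8 of 9, the exception being Pparg, against 38.9% of all genes, and mouse 2 was highest in 7 of 9, against 33.0%. Wild-type DSS 2 was lowest in 8 of 9 genes, again all but Pparg, against 17.6% of all genes, and wild-type DSS 3 was highest in the same 8, against 43.9%. Wild-type water 3 was highest in 7 of 9, all but Lep and Pparg, against 33.5%. These shares are descriptions of the 12 arrays, and the 9 genes of an array share its RNA.

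The mean of the 9 genes was 0.38, 0.88 and 0.17 in Parp1-/- DSS, -1.48, 0.33 and 0.01 in Parp1-/- water, 0.13, -0.79 and 0.73 in wild-type DSS and -1.34, -1.33 and -0.41 in wild-type water. Mice of the same group were up to 1.81 log2 units apart, in Parp1-/- water. The SD between mice of a group, pooled over the 4 groups, had a median of 0.69 over the 9 genes, against 0.30 over all genes. Fabp4, at 1.52, and Car3, at 1.31, stood at the 99.96 and 99.9 percentiles of this spread among all genes, and Cidec, at 0.84, at the 98.3 percentile. Of the variation of Pparg 81.4% lay between the 4 groups, against 12.1% to 61.0% for the other 8 genes and a median of 48.0% over all genes.

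**Figure D2:**
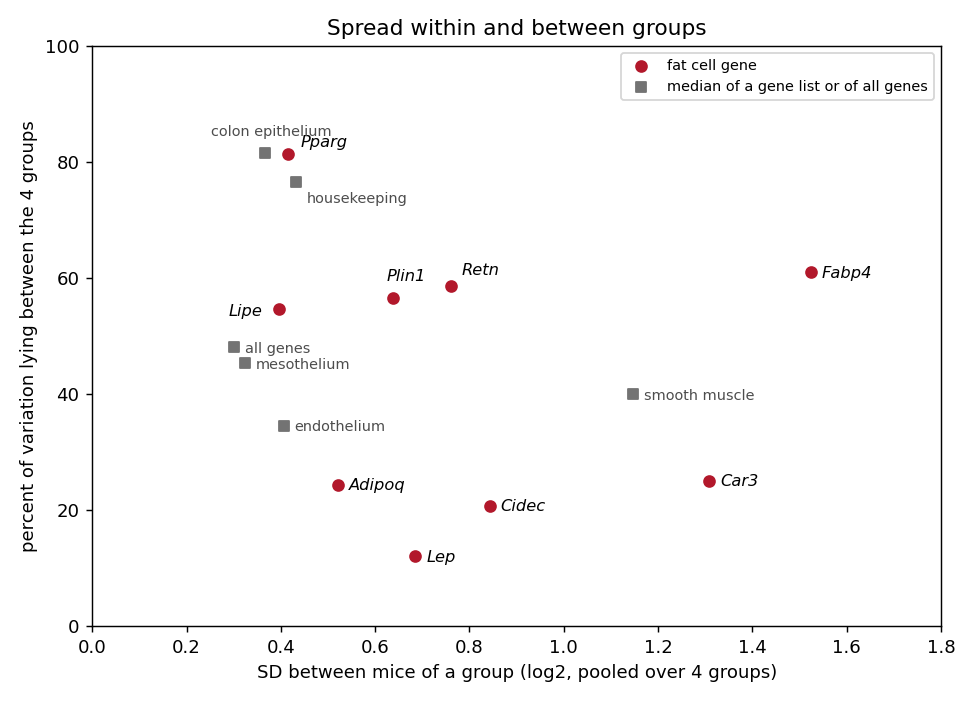
Spread of each fat cell gene between mice of a group (SD of log2 values, horizontal) against the percent of its variation that lies between the 4 groups (vertical), with medians of gene lists and of all genes as squares. Pparg, at 81.4%, lies beside the medians of the colon epithelium and housekeeping genes, and the other 8 genes lie lower.

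Genes of other tissues that can come with the colon moved with the fat cell genes in some arrays and not in others. Smooth muscle genes were lowest in Parp1-/- water 1 within that group for all 19 genes, as were endothelium genes for all 15, so in this group vessels, muscle and fat genes were low in the same mouse. Parp1-/- water 2, highest in 7 of 9 fat cell genes, was highest in 14 of 15 endothelium, 11 of 13 macrophage and 11 of 19 smooth muscle genes. In Parp1-/- DSS the order differed: mouse 2, highest in all 9 fat cell genes, was the highest in 0 of 19 smooth muscle genes and 3 of 15 endothelium genes. There mouse 1 was highest in 19 and 10, a position it held in 46.1% of all genes. Mouse 3, lowest in 7 of 9 fat cell genes, was lowest in 11 of 15 endothelium genes and 7 of 19 smooth muscle genes. In wild-type DSS, mouse 2 was lowest in 11 of 15 endothelium genes and 6 of 19 smooth muscle genes, and mouse 3, highest in 8 of 9 fat cell genes, was highest in 13 and 14. The 9 mesothelium genes, which mark the lining of the gut surface and mesentery, had means of 0.39, -0.13 and -0.12 in Parp1-/- DSS, -0.21, 0.21 and 0.15 in Parp1-/- water, -0.01, -0.03 and 0.05 in wild-type DSS and 0.24, 0.22 and 0.26 in wild-type water. On this scale wild-type water, lowest in fat cell genes by group mean, was not low in mesothelium genes. The median of 1056 odour and vomeronasal receptor genes was higher still there, at 0.42, 0.38 and 0.39 in mice 1 to 3. It was at 0.38 in wild-type DSS 1 and at -0.12 to 0.05 in the other arrays. The part of such a shift in the mesothelium means, and in the genes called lower for genotype in water below, was not tested. The means of 13 macrophage genes were 0.08 to 0.26 in Parp1-/- DSS, -0.23 to 0.37 in Parp1-/- water, 0.03 to 0.57 in wild-type DSS and -0.46 to -0.29 in wild-type water, and the mean of the 7 measured pancreas genes stayed between -0.30 and 0.14. Within that list Clps, the colipase of pancreatic fat digestion, was called higher in Parp1-/- water than in wild-type water by 1.91 ± 0.32 (SE, limma adjusted p = 0.00212). It was the only 1 of the 7 with a difference above 0 there. After quantile normalization Clps was still called, at 1.30 (limma adjusted p = 0.0104), and on the housekeeping scale it was not, at 0.52. Further calls for genotype in water were Flna and Tpm1 of smooth muscle and Egfl7 of endothelium, higher in Parp1-/- mice. Ramp2 of endothelium, Muc16 of mesothelium and Myod1, Myh2, Tnnt3 and Tnnc2 of skeletal muscle were called lower. In that comparison 17.9% of all genes were called higher and 13.7% lower. After quantile normalization only Tpm1 of these genes was still called (limma adjusted p = 0.0422), and Egfl7 turned to -0.78 on the housekeeping scale. Myod1 was also called lower for DSS in wild-type mice, but not after quantile normalization (limma adjusted p = 0.263). In water C1qb and Mertk of the macrophage genes were called higher in Parp1-/- mice, and Mertk turned to -0.34 on the housekeeping scale. Neither was called after quantile normalization (limma adjusted p = 0.103 and 0.161). Of the 13 macrophage genes 4 were called higher after DSS in wild-type mice, namely Cd68, Cd14, C1qb and Mertk, as were 8.89% of all genes. On the housekeeping scale 1 of these, Cd14, was called higher, as were 2.4% of all genes. After quantile normalization 0 were called, where 0.924% of all genes were called higher. For DSS in Parp1-/- mice 0 of the 13 were called, where 0.00938% of all genes were called higher. There 4 of the 13 were above 0, with a median of -0.06, and 2 had an unadjusted p under 0.05. These were Cd14, at 2.07 ± 0.50 against 2.12 ± 0.50 in wild-type mice, and Cd68, at 0.80 ± 0.26 against 1.54 ± 0.26 (SE). The part of vessels, muscle and macrophages in the fat cell gene values was not tested.

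**Figure D3:**
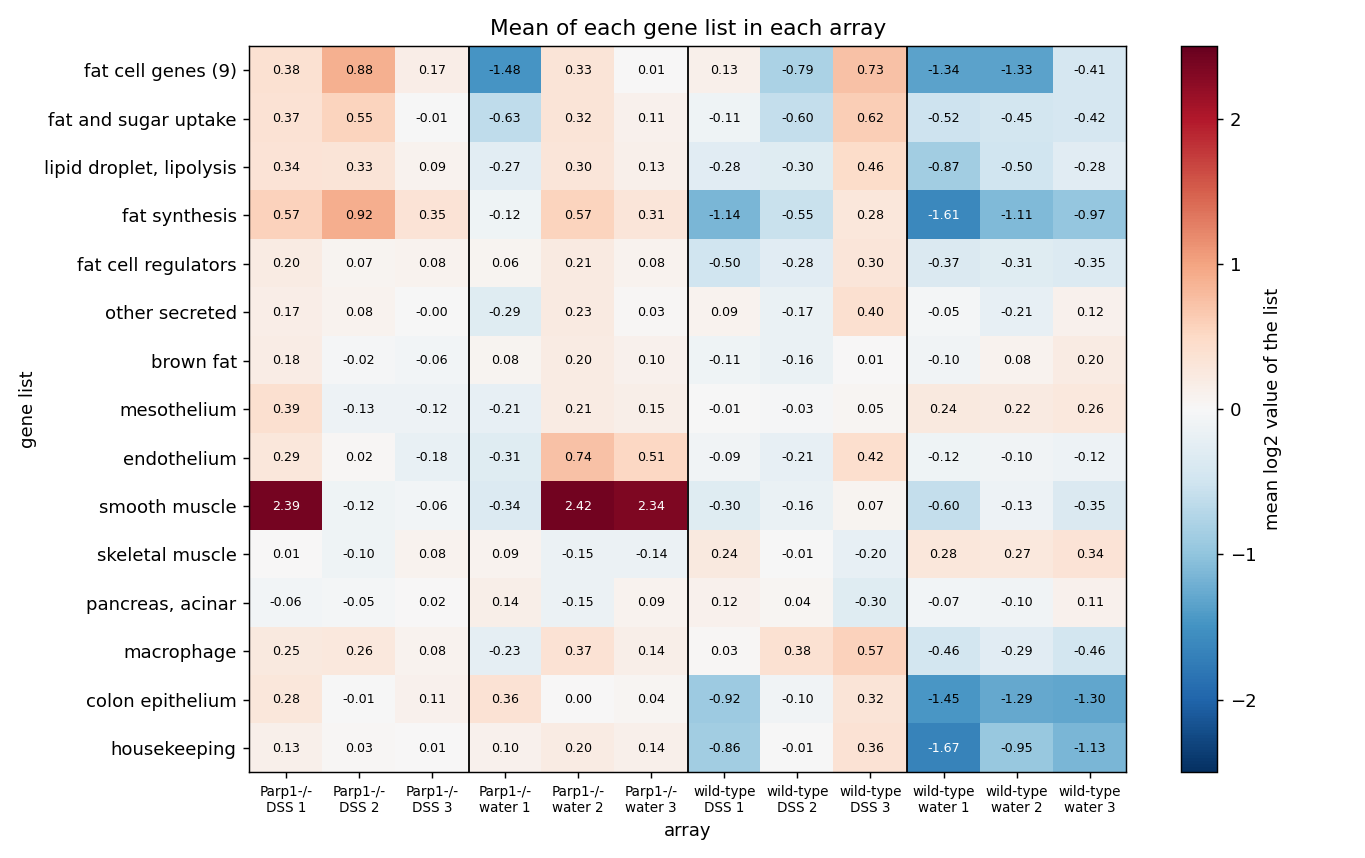
Mean log2 value of the fat cell genes and of 14 other gene lists (down) in each of the 12 arrays (across), with the number printed in each cell. The fat cell genes are lowest in Parp1-/- water 1 at -1.48, while smooth muscle genes are high in Parp1-/- DSS 1 and Parp1-/- water 2 and 3.

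The first comparison asked how DSS changed the fat cell genes in Parp1-/- mice. It shares its water group with the genotype comparison in water and its DSS group with that under DSS, so the comparisons are not independent. Limma called 0 of 9 genes, where it called 0.00938% of all genes higher and 0% lower, and 1 of the 9, Retn, had an unadjusted p under 0.05. The difference was above 0 in 8 of 9 genes, from 0.21 for Pparg to 2.11 for Fabp4, with a median of 0.94 against 0.01 over all genes. Fabp4, Lipe and Retn had groups that did not overlap, with DSS higher, as did 7.82% of all genes, against 4.7% with DSS lower. The count above 0 was 8 of 9 also after quantile normalization, with equal array medians and on the housekeeping scale. Without the 3 arrays high in smooth muscle genes, which left Parp1-/- water 1 as the only water array, the median was 1.86. Without Parp1-/- water 1 it was 0.40.

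In wild-type mice, DSS was set against water to give the response with Parp1 present. Pparg was called higher, 1 of 9 genes, where 8.89% of all genes were called higher and 4.16% lower. All 9 genes were above 0, from 0.30 for Adipoq to 2.95 for Fabp4, with a median of 0.83 against -0.05 over all genes; on the housekeeping scale, which moved the median of all genes to -1.13, only 3 of 9 were above 0 and their median was -0.26. Fabp4 and Pparg had groups that did not overlap, with DSS higher, as did 11.4% of all genes, against 12.2% with DSS lower. After quantile normalization 0 of 9 were called, where 0.924% of all genes were called higher and 0.0469% lower. The median was 0.25 after quantile normalization and 0.10 with array weights, by which limma counts arrays far from their group less. Leaving out wild-type DSS 3 gave a median of 0.32, leaving out DSS 2 gave 1.26 and leaving out water 3 gave 1.28.

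The genotypes in water were compared to see the uninjured colon. Pparg was called higher in Parp1-/- mice, 1 of 9, where 17.9% of all genes were called higher and 13.7% lower. The difference was above 0 in 7 of 9 genes, with Car3 at -0.01 ± 0.91 and Cidec at -0.31 ± 0.59 (SE), and the median was 0.49 against -0.07 over all genes; that direction turned to -0.04 after quantile normalization, to -0.90 on the housekeeping scale, where the median of all genes was -1.47, and to -0.47 without the 3 arrays high in smooth muscle genes, where Parp1-/- water was mouse 1 alone. Pparg alone had groups that did not overlap, as did 26.2% of all genes with Parp1-/- higher and 29.2% with Parp1-/- lower. After quantile normalization 0 of 9 were called, where 7.3% of all genes were called higher and 2.64% lower. On the housekeeping scale limma called Adipoq lower in Parp1-/- water at -1.10 (adjusted p = 0.0197), Lipe at -0.85 (adjusted p = 0.0218) and Cidec at -1.70 (adjusted p = 0.00939). On that scale 74.7% of all genes were called lower and 2.72% higher, and 8 of the 9 genes lay above the median of all genes, as they did as deposited. When Parp1-/- water 1 was left out, the calls were Pparg, Fabp4 and Plin1, all higher, and the median was 0.91; leaving out Parp1-/- water 2 gave 0.12, and leaving out wild-type water 2 or 1 gave 0.22 or 0.28.

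Under DSS the genotypes differed in 0 of 9 genes by limma, with none of the 9 and 593 of all genes at an unadjusted p under 0.05, and 0% of all genes called. The differences ran from -0.26 ± 0.49 for Lep to 1.33 ± 1.05 for Fabp4 (SE), with 8 of 9 above 0 and a median of 0.40 against 0.00 over all genes. On the housekeeping scale 7 of 9 were above 0, with a median of 0.17. No gene of the 9 had groups that did not overlap, against 6.55% of all genes. The interval at 95% confidence was -0.45 to 1.20 for Adipoq and -0.98 to 3.64 for Fabp4, so a difference of either sign fits within each. With array weights, which counted wild-type DSS 1, 2 and 3 at 0.148, 5.30 and 0.379, Lipe was called higher in Parp1-/- DSS by 0.78 (limma adjusted p = 0.0478) and the median was 1.19. Leaving out 1 mouse moved the median to 0.08 for DSS 2 of the wild type, to 0.74 for its DSS 3 and to 0.21 for Parp1-/- DSS 2; without wild-type DSS 1 and wild-type water it was 0.39.

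The DSS responses of the genotypes were then compared with each other, Parp1-/- minus wild type. None of the 9 was called by limma, where 2.54% of all genes were, and 1, Pparg, had an unadjusted p under 0.05. Its difference of responses was -1.38 ± 0.44 (SE, limma adjusted p = 0.137), while with array weights the adjusted p was 0.00749. For the other 8 genes the difference ran from -0.85 for Fabp4 to 0.65 for Car3, 4 of them above 0. The median of the 9 was -0.03, and it turned to 0.58 after quantile normalization, to 1.14 on the housekeeping scale, where the median of all genes was 1.22, and to 1.16 without the 3 arrays high in smooth muscle genes, with mouse 1 alone in Parp1-/- water.

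**Figure D4:**
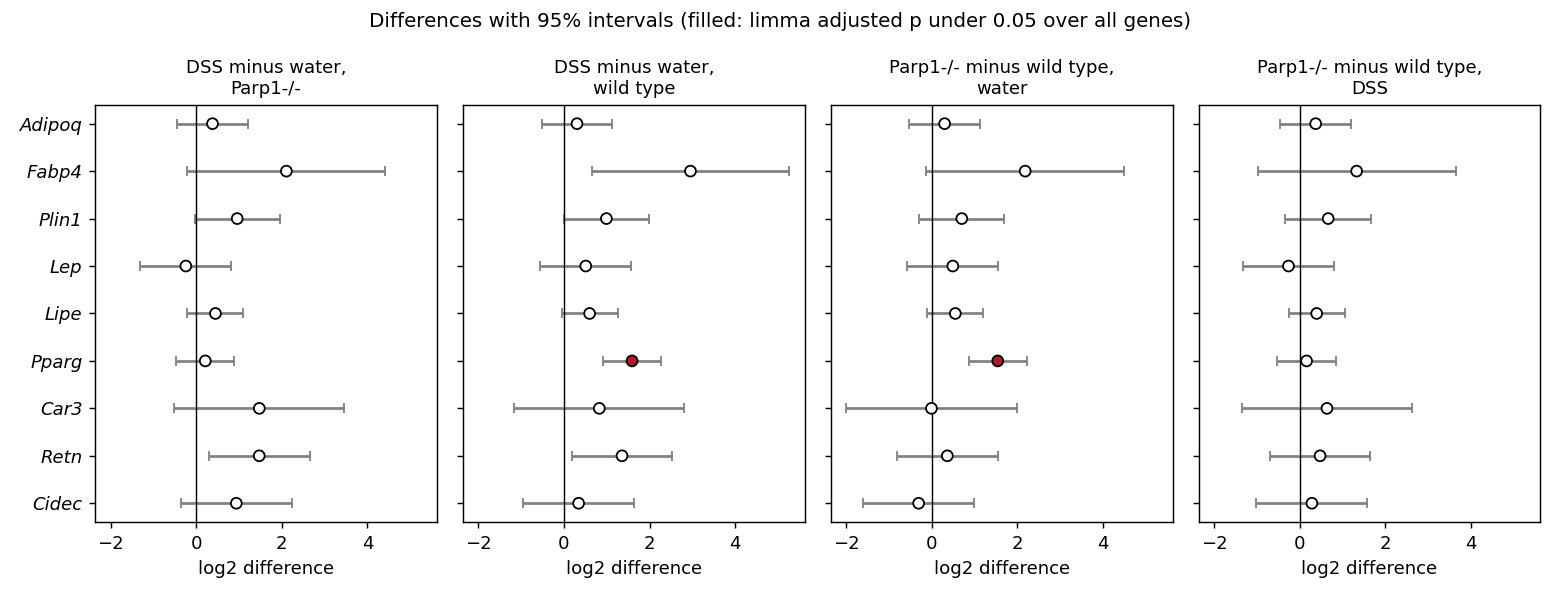
Log2 differences of the 9 fat cell genes in the 4 comparisons (horizontal), with intervals at 95% confidence and filled points for a limma adjusted p under 0.05 over all genes. Only Pparg is filled, at 1.59 for DSS in wild-type mice and 1.54 for genotype in water.

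**Figure D5:**
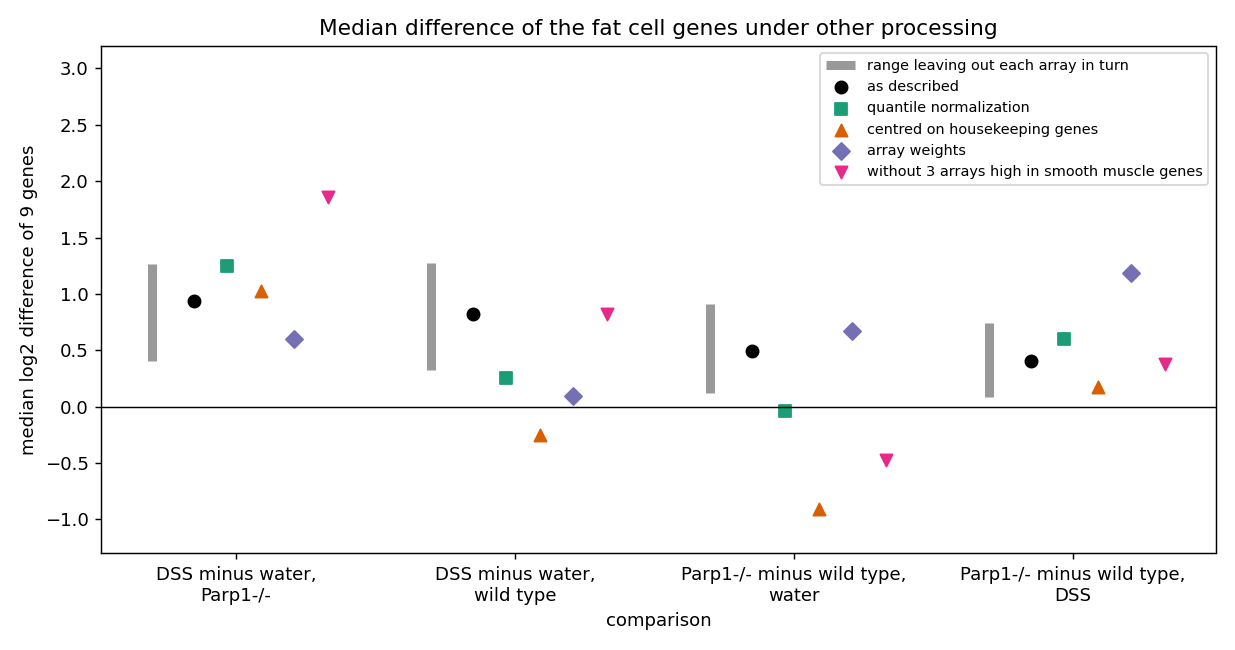
Median log2 difference of the 9 genes (vertical) in the 4 comparisons, as described and under other processing, with grey bars for the range when each array was left out in turn. The median for DSS in Parp1-/- mice stays above 0 in all settings shown, and that for genotype in water runs from -0.90 to 0.91. Leaving out the 3 arrays high in smooth muscle genes leaves 1 array in Parp1-/- water.

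Other genes of fat tissue were taken from lists of fat cell functions. As deposited, 8.89% of all genes were called higher and 4.16% lower for DSS in wild-type mice. For genotype in water these shares were 17.9% and 13.7%. Centring on the housekeeping genes moves every gene of an array alike, and it took the median of all genes to -1.13 for DSS in wild-type mice, with 70% called lower and 2.4% higher, and to -1.47 for genotype in water, so directions on that scale are read against those medians. Of 7 measured genes for fatty acid and sugar uptake, 1 was called in wild-type mice given DSS, Lpl, the lipase that frees fatty acids from blood lipids, higher by 1.21 ± 0.35 (SE, limma adjusted p = 0.0459), and 0 were called in the other comparisons. On the housekeeping scale Lpl was at 0.13 (limma adjusted p = 0.801) and after quantile normalization at 0.69 (0.465). Cd36, a fatty acid receptor, was at 0.41, 1.003 and 0.10 in Parp1-/- DSS, -3.01, 0.61 and 0.39 in Parp1-/- water, -0.10, -1.69 and 0.85 in wild-type DSS and -1.83, -1.84 and -0.47 in wild-type water. In Parp1-/- DSS, Parp1-/- water and wild-type DSS its lowest and highest mice were those of the mean of the 9 fat cell genes. Cd36 was not called, and its list followed this order only in part. Of the 7 uptake genes, Parp1-/- water 1 was lowest in 4, against 38.9% of all genes. Wild-type DSS 2 was lowest in 3 of them, against 17.6%. Of 13 lipid droplet and lipolysis genes, Pnpla2, the lipase that starts lipolysis, was called higher after DSS in wild-type mice by 1.66 ± 0.31 (limma adjusted p = 0.00592), and in Parp1-/- mice 0 were called and 1 had an unadjusted p under 0.05. That call ended on the housekeeping scale, at 0.58, and after quantile normalization, at 1.01. In water 3 were called higher in Parp1-/- mice, namely Bscl2, Pnpla2 and Mgll, and 1 lower, Cidea. After quantile normalization Bscl2 alone of these was still called, at 0.83 (limma adjusted p = 0.0450), where 7.3% of all genes were called higher. For Pnpla2, Mgll and Cidea the limma adjusted p was then 0.266, 0.0906 and 0.0566. On the housekeeping scale Pnpla2 turned to -0.13 there, Bscl2 was at 0.22 and Mgll at 0.15, and the list held 0 genes called higher and 7 of 13 called lower, against the 74.7% of all genes, with a median of -0.68.

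Of 14 genes of fatty acid and triglyceride synthesis, 8 were called higher in Parp1-/- water than in wild-type water, as were 17.9% of all genes. Among the 8 were Scd1, which desaturates fatty acids, by 2.90 ± 0.69, Fasn, the fatty acid synthase, by 2.42 ± 0.43, and Acly, which supplies acetyl groups, by 2.27 ± 0.29 (SE, limma adjusted p = 0.0111, 0.00282 and 0.000481). The housekeeping genes were called higher in 13 of 16 in the same comparison, namely Ywhaz, Gapdh, Eef1a1, Pgk1, Atp5b, Polr2a, Sdha, Hprt, B2m, Tfrc, Eif4a2, Actb and Gusb, with a median of 1.43 against 1.52 for the synthesis genes. Under DSS all 14 were above 0 in Parp1-/- against wild-type mice, with a median of 1.04, 0 called and 8 at an unadjusted p under 0.05, while the housekeeping median was 0.28. All 14 were above 0 also after quantile normalization, with a median of 1.15, and on the housekeeping scale, with a median of 0.82, and 0 were called in either. In wild-type mice 2 of 14 were called higher after DSS, Scd1 by 3.48 ± 0.69 and Acly by 1.27 ± 0.29 (limma adjusted p = 0.00790 and 0.0161). In that comparison 8.89% of all genes and 9 of 16 housekeeping genes were called higher. In the water comparison 4 were called higher after quantile normalization, Acly, Fasn, Me1 and Dgat1, as were 7.3% of all genes. Scd1 was not called there, at 1.89 (limma adjusted p = 0.0954). On the housekeeping scale 4 were called higher, Acly, Fasn, Me1 and Scd1, and 2 lower, with a list median of 0.12. All genes were called higher in 2.72% and lower in 74.7% there. The other 4 called as deposited were Dgat1, Dgat2, Pck1 and Gpam, and Gpam turned to -0.24 on the housekeeping scale. For DSS in wild-type mice the list median of 0.78 turned to -0.30 on that scale, still above the median of all genes, with Scd1 called, at 2.40, and Acly not, at 0.19. After quantile normalization neither was called, with Scd1 at 2.33 (limma adjusted p = 0.151) and Acly at 0.39 (limma adjusted p = 0.494).

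Among 15 regulators and receptors, Adipor2, an adiponectin receptor also active outside fat, was called in 3 comparisons: higher by 1.76 ± 0.25 after DSS in wild-type mice, higher by 2.49 ± 0.25 in Parp1-/- water against wild-type water, and with a smaller DSS response in Parp1-/- mice, at -1.85 ± 0.35 (SE, limma adjusted p = 0.00111, 0.000128 and 0.0198). Further calls were Cebpb, a factor of fat cell formation, higher after DSS in wild-type mice by 0.74, and Ppargc1a, a coactivator of mitochondrial genes, higher in Parp1-/- water by 1.01; on the housekeeping scale they turned to -0.34 and -0.38. Adipor2 kept its direction there, at 0.67, 1.09 and -0.68, the first and the second of these still called. After quantile normalization the second alone was called, at 1.504 (limma adjusted p = 0.00651). As deposited, 2 of the 15 were called higher for DSS in wild-type mice, where 8.89% of all genes were. For genotype in water 2 were, where 17.9% of all genes were. In the difference of the responses 1 was called lower, where 2.54% of all genes were called in either direction. Of 10 other secreted proteins, 1 was called higher after DSS in wild-type mice, where 8.89% of all genes were. This was Lcn2, lipocalin-2, which neutrophils and inflamed epithelium also make, at 2.59 ± 0.43 (limma adjusted p = 0.00293). In Parp1-/- mice its DSS difference was 1.51 ± 0.43 (SE) and was not called (limma adjusted p = 0.859). Apln, a peptide hormone, was lower in Parp1-/- water by 0.67 on the log2 scale, a difference of -0.67 ± 0.19 (SE, limma adjusted p = 0.0251, and 0.104 after quantile normalization). It was the 1 of the 10 called lower there, where 13.7% of all genes were. The 8 genes of brown fat, the heat-producing kind, had means between -0.16 and 0.20 in all arrays, with calls in both directions for genotype in water. Of the 8, 1 was called higher and 2 lower there, where 17.9% and 13.7% of all genes were. Cox7a1, a subunit of cytochrome c oxidase found in muscle and fat, was higher in Parp1-/- water by 1.91 ± 0.39 (SE, limma adjusted p = 0.00554), was still called after quantile normalization, at 1.54, and was not on the housekeeping scale, at 0.52. Ucp1, the uncoupling protein of brown fat, was lower in Parp1-/- water than in wild-type water by 0.56 on the log2 scale. That difference was -0.56 ± 0.16 (SE, limma adjusted p = 0.0234, and 0.177 after quantile normalization). Ucp1 was at -0.0006, -0.16 and -0.15 in Parp1-/- water against 0.50, 0.53 and 0.34 in wild-type water. The median of the 1056 odour and vomeronasal receptor genes differed the same way. It was at -0.01, -0.11 and -0.12 in Parp1-/- water against 0.42, 0.38 and 0.39 in wild-type water. The part of such a shift in the lower values of Ucp1, Apln and Cidea was not tested.

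The genes whose profiles lay nearest to Adipoq were found by the root mean square difference over the 12 arrays, in which a flat profile at 0 scored 0.49 and the median gene 0.63. Nearest was Fmo1, a flavin-containing monooxygenase, at 0.23, followed by the protease Htra3 at 0.25, Col4a2, a basement membrane collagen, at 0.28, Mr1, which presents vitamin metabolites to T cells, at 0.28, and Ppp1r3c, a glycogen-targeting phosphatase subunit, at 0.29. Slc36a2, Chst12, Hps3, Cox8b and Esam followed at 0.29, 0.29, 0.30, 0.30 and 0.30. Among the members Lipe lay at 0.27, Lep at 0.43, Cidec at 0.44 and Plin1 at 0.47. Retn at 0.62, Pparg at 0.77, Car3 at 0.89 and Fabp4, with its wide range, at 1.79 lay farther from Adipoq than the flat profile. Fmo1 was at 0.42, 0.83 and 0.24 in Parp1-/- DSS, -0.73, 0.19 and -0.11 in Parp1-/- water, 0.11, -0.79 and 0.71 in wild-type DSS and -0.60, -0.64 and -0.38 in wild-type water. Likeness to Adipoq chose these genes, so it is a description. In wild-type water the lowest mouse was 2 for Fmo1 and 1 for Adipoq.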

How the data were processed

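Per the labels' protocols, colon RNA was biotin-labelled for Affymetrix arrays, 1 per mouse. No label names a batch, scan date or slide. The deposited table held log2 values, as assumed here, of 31693 probe sets from -4.83 to 5.47. The sources used here do not say how the authors corrected background and normalized. Every probe set had a median of 0, while log base and direction stay unknown; no 2 arrays were identical. Array medians were 0.000797, -0.0204 and -0.00781 in Parp1-/- DSS, -0.00315, -0.0310 and -0.0438 in Parp1-/- water, 0.0784, 0.000299 and -0.00104 in wild-type DSS and 0.0576, 0.0999 and 0.0946 in wild-type water.

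Probe sets were named from GEO's platform annotation: 22586 had 1 symbol, 1756 several and 7351 none, and 22406 of the first matched a RefSeq gene table (GRCm38.p6) by entrez ID. Probe sets of a gene were averaged, which gave 21314 genes. A model of the 4 group means (limma 3.58.1, lmFit and eBayes, R 4.3.3) was fitted over all 12 arrays. Benjamini-Hochberg adjustment ran over all genes, with a call at an adjusted p under 0.05. The fit was also run on simulated data drawn gene by gene, without shifts shared by the genes of an array. That run therefore cannot judge calls made where such shifts are present. The mice were separate animals by the design text; replicate numbers only name them. Members and gene lists were chosen with earlier results of these data known. Named were all members and, in other lists, genes called in a comparison. Where a comparison had none, the 2 of smallest p were taken. Of these only Cd36, and Cd14, Cd68 and Lcn2 for DSS in Parp1-/- mice, are given. The 10 genes nearest to Adipoq were also named, leaving out predicted genes, clones, small RNA and odour receptor genes. The alternatives were quantile normalization, equal array medians, centring on housekeeping genes, probe sets on their own, eBayes with trend and robust, array weights, only the groups compared, 8 arrays without those low in housekeeping genes, a threshold of 0.01 and leaving out each array. Leaving out the 3 arrays high in smooth muscle genes was chosen after seeing the data. Tables were handled in Python 3.11.15 with pandas 2.3.3.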

Additional observations from a re-analysis of the deposited data

How the results depend on the processing

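Of the 9 genes, the number called was 1 for DSS in wild-type mice, 1 for genotype in water and 0 for the other 3 comparisons. For DSS in wild-type mice it was 0 after quantile normalization, on the housekeeping scale and with only the groups compared; leaving out each array gave 1 to 2. For genotype in water it was 0 after quantile normalization and without the 3 arrays high in smooth muscle genes, 3 on the housekeeping scale and 2 with array weights; leaving out each array gave 1 to 3. Array weights gave 1 for genotype under DSS and 1 for the difference of the responses, both 0 otherwise. On the housekeeping scale 74.7% of all genes were called lower for genotype in water. The cause of the other changes was not tested. Fabp4 for genotype in water turned to -0.62 without the 3 arrays high in smooth muscle genes, a fit with 1 array in Parp1-/- water, assumed to vary like the other groups. Car3 was -0.086 for DSS in wild-type mice by its first probe set, and -0.56 for genotype under DSS and -0.55 for the difference of the responses by its second. Equal array medians, eBayes with trend and robust, and a threshold of 0.01 left all 5 counts as they were, as did the fit to the 6 Parp1-/- arrays and wild-type DSS 2 and 3 for the 2 comparisons it allows. The planned filter on dim signals was left out, since centred values hold no brightness, which also leaves signal over background unknown. No paired analysis was possible because the labels give the mice of different groups no shared numbers. With 3 mice a group, the number of arrays limits the precision.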
